A study of Mus musculus with 12 samples.

Results

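The genes of the mTOR complexes and of their main inhibitors were followed in 3 mouse melanocytic lines, MelanA, B16F0 and B16F10, each cultured without treatment or with SX-682, an antagonist of the chemokine receptors CXCR1 and CXCR2. The 10 genes, Mtor, Rptor, Rictor, Tsc1, Tsc2, Ddit4, Deptor, Sesn1, Sesn2 and Sesn3, were taken by symbol from the table of read counts that the authors deposited. All 10 of the 10 were found among its 34513 genes, and all 10 passed the expression filter that kept 18338 genes. MelanA is labelled as a nontumorigenic murine line, and B16F0 and B16F10 are melanoma lines of the B16 family, B16F10 having been derived by selection for lung colonization. Each of the 6 groups had 2 libraries, the controls had no treatment, no line carried an engineered allele according to the labels, and each line stands for 1 cell population. The labels do not say whether the 2 libraries of a group came from separate cultures, so the p-values measure the spread between these libraries, which may be technical. The dose and duration of SX-682 for these cultures are not given in the sources used here.

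mTOR is a serine/threonine kinase that couples nutrient, growth factor and stress signals to protein synthesis and autophagy. With raptor (Rptor) it forms mTORC1, and with rictor (Rictor) it forms mTORC2, which phosphorylates AKT. The TSC1-TSC2 complex turns off RHEB, the small GTPase that activates mTORC1 at the lysosome. Ddit4 (REDD1) acts through TSC2, the sestrins (Sesn1, Sesn2 and Sesn3) act through the GATOR2 complex, and Deptor binds the mTOR kinase itself. Ddit4 and Sesn2 are known to be induced by several stresses, including the integrated stress response, while Sesn1 and Sesn3 are better known as targets of p53 and of the FOXO factors. These statements describe proteins, and the values below are RNA levels.

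The gene counts of a library summed to between 48876982 and 85322092 (median 66943832). Levels are given as counts-per-million values (CPM) after scaling by the trimmed mean of M-values (TMM), and 3 counts, the floor used here, were between 0.0330 and 0.0623 CPM. Tests are edgeR quasi-likelihood F-tests on the counts of all 12 libraries, with Benjamini-Hochberg adjustment over the 18338 genes and a threshold of 0.05, and log2 fold changes carry a standard error (SE). The libraries of a group differed by more than counting noise (chi-square per gene between 2.82 and 4.97), and the biological coefficient of variation was 2.78%, so that small changes passed the test. An exact permutation of 2 against 2 libraries reaches a 2-sided p of 0.333 at best, and significance here therefore depends on the variance that edgeR pools over genes and groups.

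The file places the genes on GRCm38 (mm10). Ddit4 (ENSMUSG00000020108.4) is the shortest, with 1755 exonic bases in 3 exons at chr10:59949669-59951834 on the minus strand. Deptor (ENSMUSG00000022419.16) lies at chr15:55112317-55259271 on the plus strand, Sesn2 (ENSMUSG00000028893.8) at chr4:132492032-132510501 on the minus strand, Sesn1 (ENSMUSG00000038332.13) at chr10:41809935-41908424 on the plus strand and Sesn3 (ENSMUSG00000032009.8) at chr9:14275067-14333101 on the plus strand. Mtor (chr4:148448611-148557683), Rptor (chr11:119602905-119899576), Rictor (chr15:6708379-6800401) and Tsc1 (chr2:28641228-28691167) are on the plus strand and Tsc2 (chr17:24595816-24632630) on the minus strand. The exonic length reaches 16930 bases in Rictor, which is why levels are compared between genes only per kilobase.

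The lines were checked against melanocyte markers before the members were compared. All 8 markers were over the floor in every library, but their summed level was between 1351 and 1381 CPM in untreated MelanA, against 19270 to 19370 CPM in untreated B16F0 and 25120 to 25150 CPM in untreated B16F10. Tyr, the tyrosinase of melanin synthesis, had a mean of 0.825 CPM in untreated MelanA, and Pmel, a structural protein of melanosomes, had 8.11 CPM. Sox10, a lineage factor of melanocytes, had 669.9 CPM there. The 6 fibroblast markers summed to between 113.8 and 115.4 CPM in untreated MelanA. In the untreated B16 lines they summed to between 8.43 and 16.7 CPM, and Dcn and Lum were at or under the floor. Most of the untreated MelanA sum came from Col3a1 (mean 53.9 CPM) and Col1a1 (46.4 CPM). Col1a1, Col3a1, Dcn and Lum were higher in untreated MelanA than in either untreated B16 line, but the other markers were not. Col1a2 had means of 0.764 CPM in untreated MelanA, 2.36 CPM in B16F0 and 5.14 CPM in B16F10. Pdgfra had 3.999 CPM in untreated MelanA, 8.11 CPM in B16F0 and 1.33 CPM in B16F10. In MelanA, 2 of the 4 keratinocyte markers (3.37 to 3.39 CPM in sum), 2 of the 5 immune markers and 3 of the 3 endothelial markers were over the floor in both untreated libraries, at low levels. With SX-682 the melanocyte sum was between 1353 and 1361 CPM in MelanA, 16210 and 16410 CPM in B16F0 and 15250 and 15500 CPM in B16F10, and the fibroblast sum was between 93.4 and 94.8 CPM in MelanA. Whether the libraries labelled MelanA come from the line and culture named cannot be told from these data, and every comparison with MelanA is with the libraries so labelled. The part of these differences in the results was not tested. The contrasts of B16F10 with B16F0 compare no MelanA library, and a fit without MelanA is given beside the difference in change between them.

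The untreated levels were set side by side per kilobase of exon, so that genes of different length could be compared. The lengths join the exons of all annotated transcripts of a gene, and the order of the genes rests on them. Ddit4 had the highest level of the 10 genes in every line, with a mean of 125.2 ± 5.29 CPM per kilobase in MelanA, 108.3 ± 3.58 in B16F0 and 54.2 ± 0.300 in B16F10 (SD, n = 2). Deptor and Sesn2 took the next ranks in MelanA and B16F10, and Deptor and Tsc2 in B16F0. Rictor (4.12 CPM per kilobase in MelanA) and Tsc1 (4.19 in B16F10 and 3.01 in B16F0) held the lowest ranks. Several neighbours in the order lay within their spread. In MelanA these were Tsc2 (7.03 ± 0.241) and Mtor (6.82 ± 0.114), and Tsc1 (4.32 ± 0.0396) and Rictor (4.12 ± 0.231). In B16F0 each step from Rptor (7.62 ± 0.350) through Mtor (7.54 ± 0.0535), Sesn1 (7.10 ± 0.480) and Rictor (6.66 ± 0.0635) to Sesn3 (6.64 ± 0.0294) was smaller than the larger of the neighbours' SDs. In B16F10 every step was larger than that. All of these values are CPM per kilobase of exon with the SD of 2 libraries.

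**Figure D1:**
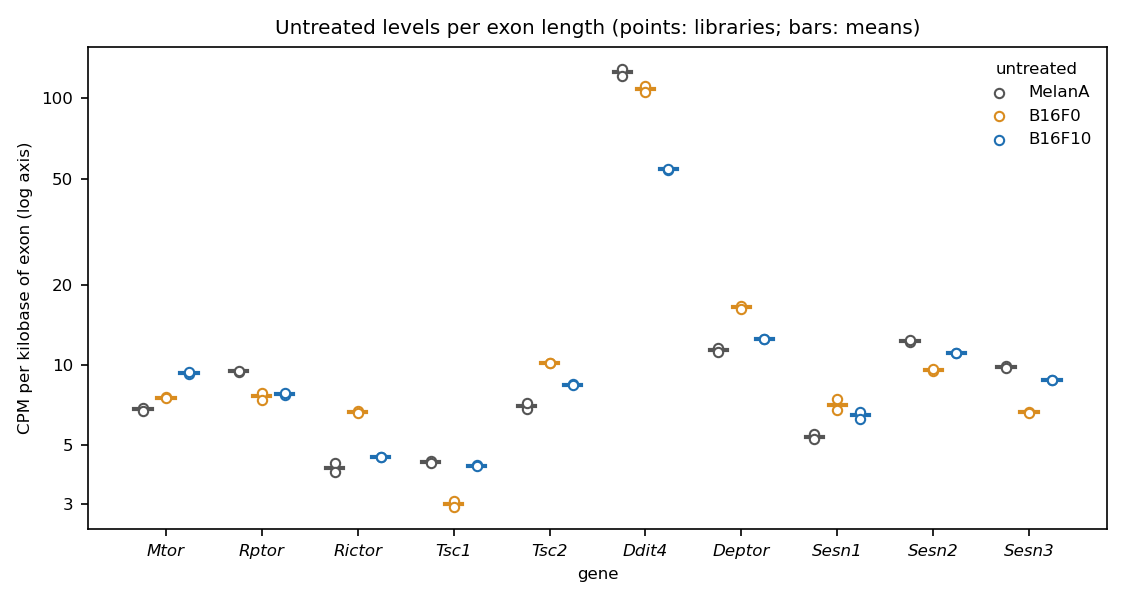
Untreated level of each of the 10 genes in MelanA, B16F0 and B16F10, in CPM per kilobase of exon on a log axis; points are the 2 libraries of a line and bars their means. Ddit4 lies above the other genes in every line, at 54.2 CPM per kilobase in B16F10 and over 100 in the other lines, and Tsc1 is lowest in B16F0 at 3.01.

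The lines differed in nearly all of these genes before treatment. Untreated B16F0 had 5 of the 10 genes higher and 5 lower than untreated MelanA, where 35.3% and 40.6% of all tested genes were called higher and lower. Untreated B16F10 had 5 higher and 4 lower than MelanA, against 33.4% and 40.8% of all genes, and 4 higher and 5 lower than B16F0, against 30.8% and 31.2%. The differences were not large for this gene table: the median absolute log2 difference of the 10 genes was 0.46, 0.21 and 0.35 in these 3 comparisons, and that of all tested genes was 0.71, 0.68 and 0.46. The first 2 comparisons share the MelanA libraries.

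The scaling matters for the comparisons with MelanA. The median log2 difference of all tested genes was -0.06 for B16F0 and -0.10 for B16F10 with TMM scaling, and -0.15 and -0.29 when libraries were scaled by total counts, an alternative chosen after seeing the data. The log2 difference of Rictor between untreated B16F10 and MelanA was 0.13 with TMM scaling (adjusted p = 0.00250, and 0.0988 without MelanA untreated replicate 2) and turned to -0.05 with total counts, and that of Deptor turned from 0.14 to -0.04. With total counts, 1 of the 10 genes was called higher in B16F10 than in MelanA (Mtor) and 5 lower (Rptor, Tsc1, Ddit4, Sesn2 and Sesn3): Rictor, Tsc2, Deptor and Sesn1 lost their calls, and Tsc1 gained one at -0.23 (adjusted p = 1.84e-05). With at least 10 counts required in every library the split was 4 higher and 5 lower. The shares of all tested genes given above belong to the reported fit, and none is given for these alternatives. Relative to the median of all genes, Rictor was at 0.24 and 0.23 and Deptor at 0.24 and 0.24 under these 2 scalings, and Ddit4 was at -1.11 under both.

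Ddit4 showed the largest untreated difference of the 10 genes between B16F10 and either other line. Its level was 226.4 and 213.2 CPM in the untreated MelanA libraries, 194.5 and 185.6 CPM in B16F0, and 94.7 and 95.5 CPM in B16F10. The 3 lines did not overlap. The log2 difference from MelanA was -0.21 in B16F0 (SE 0.028, adjusted p = 1.25e-07) and -1.21 in B16F10 (SE 0.030, adjusted p = 6.03e-25), and B16F10 lay below B16F0 by -0.999 (SE 0.030, adjusted p = 2.84e-22).

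Among the kinase and its partners, Mtor increased in the order MelanA, B16F0, B16F10, and the scaffold Rptor was lower in the B16 lines than in MelanA. Mtor was at 69.8 and 68.2 CPM in untreated MelanA, 76.6 and 75.8 CPM in B16F0, and 93.2 and 95.1 CPM in B16F10. Its log2 difference from MelanA was 0.14 in B16F0 (adjusted p = 5.11e-04, and 0.05 with an adjusted p of 0.179 under total-count scaling) and 0.45 in B16F10 (adjusted p = 1.10e-12). Rptor was at 127.1 and 127.9 CPM in MelanA, 106.0 and 99.3 CPM in B16F0, and 103.7 and 105.6 CPM in B16F10. Rptor was lower than in MelanA by a log2 difference of -0.31 in B16F0 and -0.29 in B16F10, and the B16 lines overlapped (log2 difference 0.03, 95% interval -0.04 to 0.09, adjusted p = 0.507).

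Rictor, the defining subunit of mTORC2, was highest in B16F0, with 113.5 and 112.0 CPM against 72.6 and 67.0 CPM in MelanA and 76.5 and 76.7 CPM in B16F10. B16F0 exceeded MelanA by a log2 difference of 0.69 (SE 0.037, adjusted p = 1.73e-16), and B16F10 lay below B16F0 by -0.56 (SE 0.038, adjusted p = 9.49e-14). The balance of the complex-defining genes therefore varied by line. The log2 ratio of Rptor to Rictor per kilobase was 1.20 in untreated MelanA, 0.19 in B16F0 and 0.78 in B16F10.

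The tuberous sclerosis genes moved in opposite directions in B16F0. Tsc1 was at 36.5 and 34.7 CPM in untreated B16F0, below 51.5 and 50.8 CPM in MelanA (log2 difference -0.52, SE 0.043, adjusted p = 3.59e-12) and below 49.9 and 49.3 CPM in B16F10. Tsc2, which carries the GTPase-activating domain, was at 98.1 and 97.8 CPM in B16F0, above 66.0 and 69.3 CPM in MelanA (log2 difference 0.53, SE 0.034, adjusted p = 1.19e-14) and above 81.4 and 80.8 CPM in B16F10. The log2 ratio of Tsc1 to Tsc2 per kilobase was -0.70 ± 0.063 in untreated MelanA, -1.76 ± 0.050 in B16F0 and -1.01 ± 0.0047 in B16F10 (SD, n = 2).

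Of the remaining inhibitors, Deptor was highest in untreated B16F0, at 148.3 and 144.4 CPM, against 102.4 and 99.2 CPM in MelanA and 111.2 and 111.4 CPM in B16F10. Sesn3 showed the reverse order, with 101.7 and 101.1 CPM in B16F0, 151.4 and 148.7 CPM in MelanA, and 133.7 and 133.6 CPM in B16F10 (log2 difference of B16F0 from MelanA -0.57, adjusted p = 8.95e-16). Sesn2 varied less, from 33.0 and 33.4 CPM in B16F0 to 42.4 and 43.2 CPM in MelanA. Sesn1 was the least abundant sestrin in untreated MelanA and B16F10 per kilobase. Its difference between B16F10 and B16F0 (log2 -0.13, adjusted p = 0.0495) was not called in DESeq2 (adjusted p = 0.104), nor without B16F0 untreated replicate 1 (-0.06, adjusted p = 0.526), B16F10 untreated replicate 2 (-0.09, adjusted p = 0.322) or any of 4 SX-682 libraries, both of MelanA and both of B16F10 (adjusted p from 0.0533 to 0.0538).

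SX-682 raised Ddit4 and Sesn2 and lowered Deptor in all 3 lines, so that 2 of the 10 genes rose and 1 fell everywhere. Of all tested genes, 11.3% were called higher and 11.7% lower in all 3 lines. None of the other 7 genes was called in the same direction in all 3 lines. Mtor was called in every line, but it rose in B16F0 and fell in MelanA and B16F10. In MelanA 4 of the 10 genes rose and 3 fell, where 23.4% and 24.7% of all genes did. In B16F0 4 rose and 1 fell, against 25.1% and 25.0% of all genes, and with total-count scaling 4 rose and 2 fell, Sesn1 being the added fall. In B16F10 all 10 changed, 4 upward and 6 downward, against 25.5% and 25.3%. The median absolute log2 fold change of the 10 genes was 0.19 in MelanA, 0.12 in B16F0 and 0.40 in B16F10, and that of all genes was 0.31, 0.32 and 0.36.

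**Figure D2:**
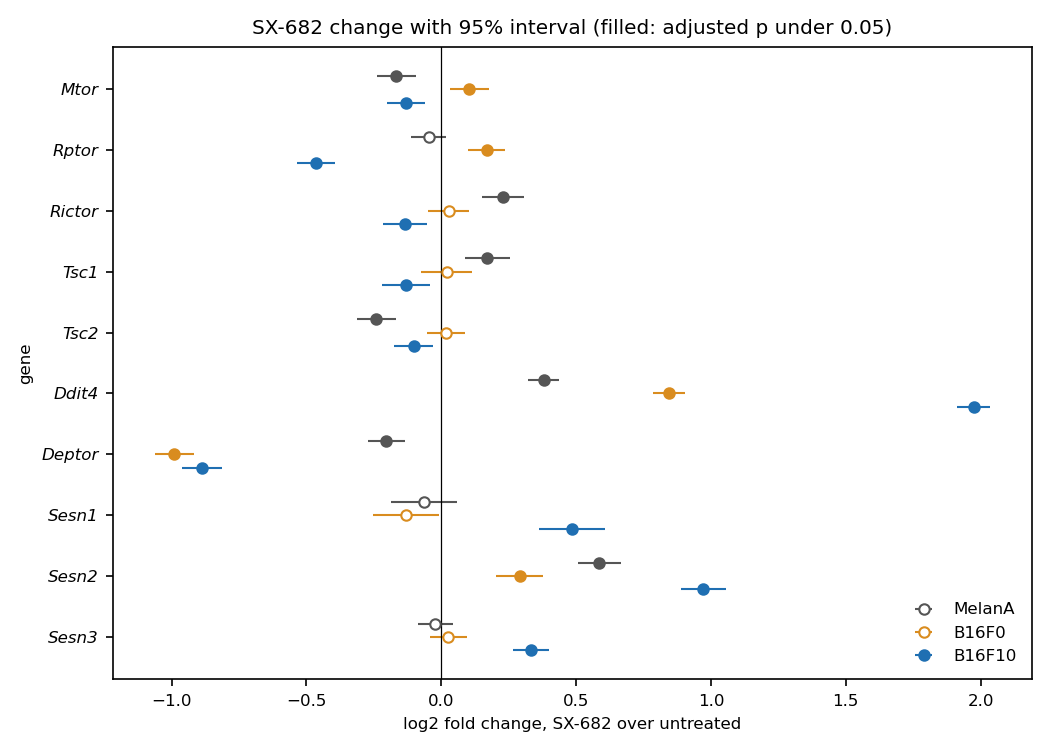
Log2 fold change of each gene with SX-682 over untreated, with its 95% interval from the edgeR fit, in MelanA, B16F0 and B16F10 (2 against 2 libraries in each); filled points have an adjusted p under 0.05. Ddit4 in B16F10, at 1.97, is the largest rise, Deptor in B16F0, at -0.99, the largest fall, and the 5 complex and TSC genes lie between -0.47 and 0.23.

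The promoters of Ddit4, Sesn2 and Sesn1 are shown because the first pair rose in every line while Sesn1 was called in B16F10 alone of the 3. They are RefSeq sequences on GRCm38.p6, from 250 bases before to 50 after the start, printed 5′ to 3′ on the gene's strand, and capitals mark each match to 4 motifs searched on both strands: TGATGNAAN (a CEBP-ATF composite element), GTAAACA (a FOXO element), NACGTG (a hypoxia element) and CACGTG (an E-box, which overlaps the third). Ddit4 lies at chr10:59951721-59952020 on the minus strand, Sesn2 at chr4:132510407-132510706 on the minus strand, and the first of 2 Sesn1 promoters at chr10:41810324-41810623 on the plus strand.
Ddit4: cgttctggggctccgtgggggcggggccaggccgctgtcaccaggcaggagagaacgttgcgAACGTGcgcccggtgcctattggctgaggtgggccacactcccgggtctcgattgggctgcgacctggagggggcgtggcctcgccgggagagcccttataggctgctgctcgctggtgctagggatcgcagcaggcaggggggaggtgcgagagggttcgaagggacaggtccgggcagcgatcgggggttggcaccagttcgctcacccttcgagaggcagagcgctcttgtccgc
Sesn2: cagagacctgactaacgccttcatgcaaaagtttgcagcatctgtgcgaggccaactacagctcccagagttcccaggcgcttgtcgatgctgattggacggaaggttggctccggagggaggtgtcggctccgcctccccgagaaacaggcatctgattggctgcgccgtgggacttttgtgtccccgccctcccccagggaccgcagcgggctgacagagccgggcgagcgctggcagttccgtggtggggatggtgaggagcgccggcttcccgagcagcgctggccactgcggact
Sesn1: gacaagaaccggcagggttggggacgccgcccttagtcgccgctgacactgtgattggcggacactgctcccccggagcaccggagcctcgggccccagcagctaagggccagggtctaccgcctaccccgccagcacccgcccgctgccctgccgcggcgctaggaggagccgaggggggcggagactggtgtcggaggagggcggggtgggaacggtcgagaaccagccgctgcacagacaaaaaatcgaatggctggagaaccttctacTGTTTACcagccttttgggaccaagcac

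The Ddit4 window holds a match to NACGTG at position -188 from the start, and the Sesn1 window holds GTAAACA on the opposite strand at position 23. The Sesn2 window holds none of the 4 motifs. The second Sesn1 window holds none either, nor does that of Sesn3, which was also called in B16F10 alone. Promoters were matched for 9 of the 10 genes, all except Deptor, and in these 10 windows the only other match was NACGTG in Rptor, at position -35. Of all 32851 promoters in the table, 3.95% hold TGATGNAAN, 3.65% GTAAACA, 19.6% NACGTG and 7.15% CACGTG. A match is a description of the letters in this window.

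Ddit4 rose with SX-682 from 226.4 and 213.2 to 286.5 and 285.5 CPM in MelanA, from 194.5 and 185.6 to 346.6 and 335.8 CPM in B16F0, and from 94.7 and 95.5 to 374.6 and 372.7 CPM in B16F10. The line with the lowest untreated level thus had the highest level under SX-682, and treated and untreated libraries did not overlap in any line. The log2 fold change was 0.38 in MelanA (SE 0.028, adjusted p = 1.47e-12), 0.84 in B16F0 (SE 0.029, adjusted p = 1.75e-20) and 1.97 in B16F10 (SE 0.030, adjusted p = 5.52e-29), a 3.93-fold rise. In B16F10, 4.17% of all tested genes had a higher log2 fold change. The rise in B16F10 exceeded that in B16F0 by 1.13 on the log2 scale (SE 0.041, adjusted p = 1.34e-18), and the mean rise of the B16 lines exceeded that in MelanA by 1.03 (SE 0.035, adjusted p = 5.66e-20). The line means spanned a 2.31-fold range without treatment and a 1.31-fold range with SX-682.

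**Figure D3:**
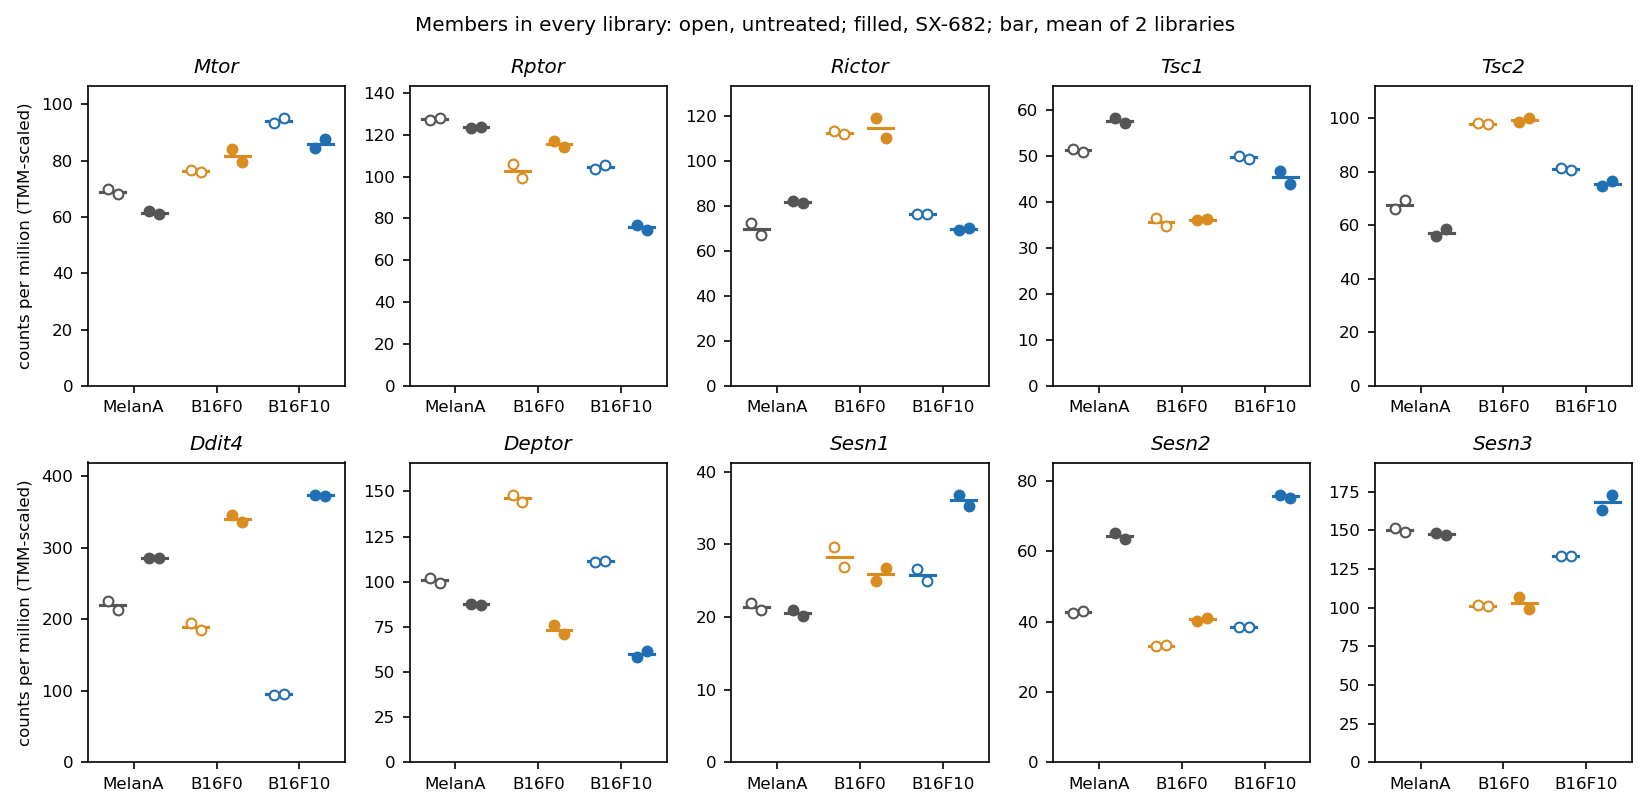
Level of each gene in all 12 libraries, in TMM-scaled CPM on axes that start at 0; open points are untreated libraries, filled points SX-682 libraries, and bars the mean of 2. Ddit4 in B16F10 goes from 95.1 CPM, the lowest of the 6 group means, to 373.7 CPM, the highest, and Deptor falls in every line.

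Deptor moved opposite to Ddit4. It fell with SX-682 from 102.4 and 99.2 to 87.7 and 87.3 CPM in MelanA, from 148.3 and 144.4 to 75.9 and 71.2 CPM in B16F0, and from 111.2 and 111.4 to 58.4 and 61.9 CPM in B16F10. B16F0, which had the highest untreated level, had less Deptor than MelanA under SX-682. The log2 fold change was -0.20 in MelanA (SE 0.034, adjusted p = 9.37e-06), -0.99 in B16F0 (SE 0.035, adjusted p = 5.45e-20) and -0.89 in B16F10 (SE 0.036, adjusted p = 1.16e-18). The mean fall of the B16 lines was larger than that in MelanA by -0.74 on the log2 scale (SE 0.043, adjusted p = 1.69e-14), and the falls in B16F10 and B16F0 were not told apart (difference 0.10, 95% interval -0.0014 to 0.21, adjusted p = 0.138). Per kilobase, the log2 ratio of Ddit4 to Deptor went from 3.46 to 4.05 in MelanA, from 2.72 to 4.55 in B16F0 and, over the widest span, from 2.11 to 4.97 in B16F10. Deptor shares 303 exonic bases (3.41%) with Gm9920 on the opposite strand. Gm9920 had group means between 0.265 and 0.722 CPM.

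Sesn2 rose from 42.4 and 43.2 to 65.1 and 63.4 CPM in MelanA, from 33.0 and 33.4 to 40.1 and 41.2 CPM in B16F0, and from 38.6 and 38.5 to 76.1 and 75.0 CPM in B16F10. Treated and untreated libraries were separate in each line, and B16F0 was the lowest line under both conditions. The log2 fold change was 0.59 in MelanA (SE 0.039, adjusted p = 1.15e-13), 0.29 in B16F0 (SE 0.043, adjusted p = 1.03e-06) and 0.97 in B16F10 (SE 0.040, adjusted p = 1.57e-18). Unlike Ddit4, Sesn2 did not pass the comparison of the mean B16 change with that in MelanA (difference 0.04, 95% interval -0.05 to 0.14, adjusted p = 0.550). The change in MelanA lay between those in B16F0 and B16F10, and B16F10 exceeded B16F0 by 0.68 on the log2 scale (SE 0.059, adjusted p = 2.19e-10).

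Sesn1 and Sesn3 rose with SX-682 in B16F10. Sesn1 went from 26.6 and 24.9 to 36.9 and 35.3 CPM there (log2 fold change 0.48, SE 0.059, adjusted p = 3.27e-08), and Sesn3 from 133.7 and 133.6 to 163.4 and 173.1 CPM (log2 fold change 0.33, SE 0.033, adjusted p = 4.95e-10). In MelanA Sesn1 was at 21.9 and 20.99 CPM without and 20.9 and 20.1 CPM with SX-682, and Sesn3 at 151.4 and 148.7 CPM without and 148.6 and 147.1 CPM with it. In B16F0 Sesn1 was at 29.6 and 26.9 CPM without and 25.0 and 26.7 CPM with SX-682, and Sesn3 at 101.7 and 101.1 CPM without and 106.8 and 99.4 CPM with it. None of these 4 comparisons passed the test, although Sesn1 in B16F0 (log2 fold change -0.13, adjusted p = 0.0701) did so at -0.20 (adjusted p = 0.0224) without untreated replicate 2 and at -0.18 (adjusted p = 0.0448) without SX-682 replicate 2. The change in B16F10 exceeded that in B16F0 for Sesn1 by 0.62 (SE 0.084, adjusted p = 1.08e-06) and for Sesn3 by 0.31 (SE 0.047, adjusted p = 6.94e-06) on the log2 scale.

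Summed per kilobase of exon, the 3 sestrin genes went from 27.5 ± 0.13 to 33.3 ± 0.555 CPM per kilobase in MelanA, from 23.3 ± 0.413 to 24.9 ± 0.176 in B16F0 and, in B16F10, from 26.3 ± 0.321 to 41.8 ± 0.0499 (SD, n = 2). The share of Sesn2 in this sum went from 44.7 to 55.5% in MelanA, from 41.0 to 46.9% in B16F0, and in B16F10 from 42.1 to 52.0%. Sesn2 was the largest of the 3 shares in every group, while in CPM, without division by length, Sesn3 was the highest. The lengths join the exons of all annotated transcripts, 15269 bases over 7 transcripts for Sesn3 and 3475 bases over 1 for Sesn2. Which transcripts were expressed was not measured.

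**Figure D4:**
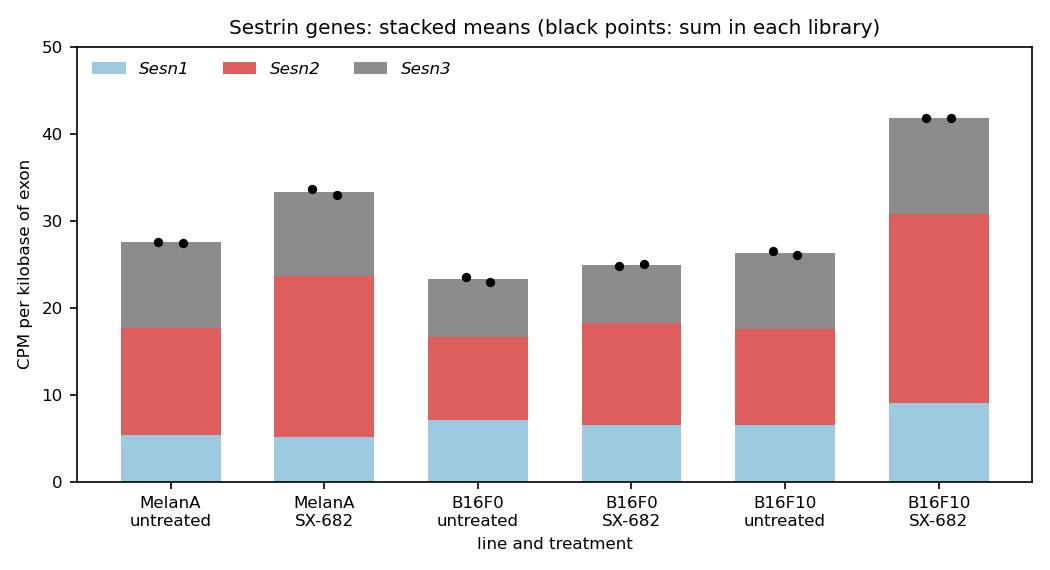
Stacked group means of Sesn1, Sesn2 and Sesn3 in CPM per kilobase of exon for each line and treatment; black points are the sum in each of the 2 libraries. The sum is highest in B16F10 with SX-682 at 41.8 and changes least in B16F0, from 23.3 to 24.9.

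Apart from Rptor in B16F10, the 5 genes of the complexes and of TSC changed by at most 0.24 on the log2 scale in any line. All 5 fell in B16F10, between -0.10 and -0.47 on the log2 scale, where 25.3% of all tested genes were called lower. In B16F0 2 rose (Mtor and Rptor) and 3 did not pass the test, where 25.1% of all genes were called higher. In MelanA 2 rose (Rictor and Tsc1) and 2 fell (Mtor and Tsc2), where 23.4% and 24.7% of all genes did. Rptor did not pass in MelanA (log2 fold change -0.05, 95% interval -0.11 to 0.02). The calls of Tsc1 and Tsc2 in B16F10 and of Mtor in B16F0 were lost when some single libraries were left out, as given below.

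Rptor showed the largest of these changes. It went from 103.7 and 105.6 to 77.1 and 74.4 CPM in B16F10 with SX-682 (log2 fold change -0.47, SE 0.034, adjusted p = 8.97e-13), and from 106.0 and 99.3 to 116.8 and 113.9 CPM in B16F0 (0.17, SE 0.033, adjusted p = 7.49e-05). In MelanA it was at 127.1 and 127.9 CPM without and 123.4 and 123.5 CPM with SX-682. The B16 lines, which had overlapped without treatment, were apart with it, and the change differed between them by -0.63 (SE 0.048, adjusted p = 1.23e-11). Rptor shares 84 exonic bases (0.624%) with Rptoros on the opposite strand, a gene whose group means did not exceed 0.0156 CPM.

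Mtor fell from 69.8 and 68.2 to 62.0 and 61.0 CPM in MelanA (log2 fold change -0.17, SE 0.035, adjusted p = 2.27e-04) and from 93.2 and 95.1 to 84.5 and 87.6 CPM in B16F10 (-0.13, SE 0.035, adjusted p = 0.00232). In B16F0 it went from 76.6 and 75.8 to 84.1 and 79.6 CPM (0.10, SE 0.036, adjusted p = 0.0152). That call was lost without untreated replicate 2 (0.10, adjusted p = 0.0795) and without SX-682 replicate 1 (0.06, adjusted p = 0.255).

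Rictor went from 72.6 and 67.0 to 82.2 and 81.3 CPM in MelanA (log2 fold change 0.23, SE 0.038, adjusted p = 7.40e-06) and from 76.5 and 76.7 to 69.4 and 70.3 CPM in B16F10 (-0.13, SE 0.040, adjusted p = 0.00523). In B16F0 it was at 113.5 and 112.0 CPM without and 119.3 and 110.4 CPM with SX-682, and these libraries overlapped. The mean change of the B16 lines differed from the change in MelanA by -0.28 (SE 0.047, adjusted p = 1.33e-05).

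Tsc1 and Tsc2 moved apart in MelanA. Tsc1 rose there from 51.5 and 50.8 to 58.2 and 57.1 CPM (log2 fold change 0.17, SE 0.041, adjusted p = 8.45e-04), and Tsc2 fell from 66.0 and 69.3 to 55.9 and 58.6 CPM (-0.24, SE 0.035, adjusted p = 1.11e-06). Their log2 ratio per kilobase went from -0.70 to -0.29 in MelanA, and was -1.76 before and -1.76 after SX-682 in B16F0 and -1.01 and -1.04 in B16F10. In B16F10 Tsc1 went from 49.9 and 49.3 to 46.8 and 43.8 CPM (-0.13, adjusted p = 0.0128) and Tsc2 from 81.4 and 80.8 to 74.8 and 76.4 CPM (-0.10, adjusted p = 0.0174). The Tsc1 call was lost without untreated replicate 1 (adjusted p = 0.0696) or SX-682 replicate 2 (adjusted p = 0.191), and the Tsc2 call without untreated replicate 1 (adjusted p = 0.0825), untreated replicate 2 (adjusted p = 0.0516) or SX-682 replicate 1 (adjusted p = 0.119). In B16F0 Tsc1 was at 36.5 and 34.7 CPM without and 36.0 and 36.2 CPM with SX-682, and Tsc2 at 98.1 and 97.8 CPM without and 98.5 and 100.02 CPM with it. Tsc2 shares 693 exonic bases (7.20%) with Pkd1 on the opposite strand. Pkd1 was between 135.7 and 263.4 CPM in the group means and rose in every line, with log2 fold changes of 0.21 in MelanA, 0.81 in B16F0 and 0.21 in B16F10. The sources used here do not say whether the counting used strand, so reads of the shared bases cannot be assigned.

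All 10 genes passed the test of a difference in SX-682 change among the 3 lines, where 47.4% of all tested genes did. The median differences of the 10 genes were not larger than those of all tested genes. The median range over the lines was 0.49 for the 10 genes and 0.51 for all. The median absolute difference was 0.27 against 0.28 between B16F10 and B16F0, and 0.21 against 0.29 between the B16 mean and MelanA. Between B16F10 and B16F0, 7 of the 10 differed in change, against 30.3% of all genes. These were Mtor, Rptor, Rictor, Ddit4, Sesn1, Sesn2 and Sesn3. The 4 inhibitors among them changed upward in B16F10 relative to B16F0 (differences from 0.31 to 1.13) and the 3 complex genes downward. The split of 4 and 3 was 4 and 5 with RLE scaling (relative log expression, the size factors of DESeq2) or at least 10 counts in every library, 4 and 4 in DESeq2 and in a fit without MelanA, and 5 and 2 with total counts. Rictor, at -0.16 (adjusted p = 0.0226), lost this call when any of 5 libraries was left out, with adjusted p-values from 0.0562 to 0.185 (B16F0 untreated replicate 2 and SX-682 replicate 1, both untreated B16F10 libraries and B16F10 SX-682 replicate 1). Tsc1 (-0.15, adjusted p = 0.0731) gained the call with RLE scaling (-0.17, adjusted p = 0.0397), and so did Tsc2 (-0.12 and adjusted p = 0.0674 in the fit reported, -0.14 and adjusted p = 0.0312 with RLE). Tsc1 also gained it without B16F0 untreated replicate 1 (adjusted p = 0.0449) or B16F10 SX-682 replicate 1 (adjusted p = 0.0320), and Deptor without B16F0 SX-682 replicate 1 (0.15, adjusted p = 0.0341). The comparison of the B16 lines with MelanA uses the mean of the 2 B16 changes, which can join opposite ones. In B16F0 and B16F10 these changes were 0.17 and -0.47 for Rptor, 0.10 and -0.13 for Mtor, and -0.13 and 0.48 for Sesn1. Between the B16 mean and MelanA 9 of the 10 differed, all except Sesn2, against 35.8% of all genes. Of these, Rptor (-0.10, adjusted p = 0.0441) lost its call when any of 9 libraries was left out, all except B16F0 untreated replicate 2, B16F0 SX-682 replicate 1 and B16F10 SX-682 replicate 1 (adjusted p from 0.0502 to 0.118), and Sesn1 (0.24, adjusted p = 0.0101) did so without MelanA untreated replicate 1 (adjusted p = 0.0550) or SX-682 replicate 2 (adjusted p = 0.0651).

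The other genes of the pathway, with known inducers of sestrins and Ddit4 and other stress genes, were counted in 8 lists with 89 genes, of which 88 were tested (Eif4ebp3 was not). Of these, 26 (29.5%) rose in all 3 lines and 13 (14.8%) fell in all 3, where 11.3% and 11.7% of all tested genes did. These all-gene shares are the background for each list below. Of the 26 genes that rose, 8 were among the 10 known inducers and 4 among the 7 other stress genes. Of the 13 that fell, 1 was among the inducers and 0 among the other stress genes. The lists were chosen with earlier results of these data known, so their counts are descriptions and no test of an excess. The median log2 fold change of the 88 genes was 0.10 in MelanA, -0.0004 in B16F0 and 0.10 in B16F10, and that of all tested genes was 0 in each line.

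Of the 7 complex partners, 0 rose and 1 fell in all 3 lines. Prr5, an mTORC2 subunit, fell by 0.33 in MelanA, by 0.75 in B16F0 and by 0.86 in B16F10 on the log2 scale, from group means of 118.2, 1.56 and 15.8 CPM. Mlst8, the subunit common to the 2 complexes, passed in no line (-0.10, 0.05 and -0.11). Telo2, which helps assemble mTOR kinases, changed by 0.17 in MelanA, -0.15 in B16F0 and -0.53 in B16F10, the widest range among the genes of this list whose change differed among the lines. None of the 3 genes Tbc1d7, Rheb and Rhebl1 was called in every line. Rhebl1, a relative of Rheb, had the widest range there, with 0.41 in MelanA, -0.14 in B16F0 (adjusted p = 0.413) and 0.34 in B16F10.

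Of the 14 genes listed under GATOR and KICSTOR, the lysosomal complexes and sensors through which amino acids reach mTORC1 and which include the GATOR2 complex that sestrins bind, 3 rose and 2 fell in all 3 lines. Mios, a GATOR2 subunit, rose by 0.46 in MelanA, 0.43 in B16F0, and 0.59 in B16F10 (log2). Depdc5, a subunit of GATOR1, which inhibits mTORC1, fell by 0.49, by 0.86 and by 0.82. Castor1, an arginine sensor, had 21 and 13 counts in untreated MelanA and 11 and 2 with SX-682, and rose by 0.51 in B16F0 and 0.94 in B16F10.

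Of the 13 Rag, Ragulator and folliculin genes, 1 rose and 1 fell in all 3 lines. Rraga, a Rag GTPase that recruits mTORC1 to the lysosome, rose by 0.13, 0.14 and 0.10 on the log2 scale in MelanA, B16F0 and B16F10, and Lamtor3, a Ragulator subunit, fell by 0.19, by 0.19 and by 0.50. Flcn, which acts on the Rag GTPases, changed by 0.26 in MelanA, -0.61 in B16F0 and -0.93 in B16F10. Of the 16 upstream kinase and phosphatase genes, 3 rose and 4 fell in all 3 lines. Akt1 fell by 0.48, by 0.51 and by 0.56, and Pik3r1, a regulatory subunit of PI3K, fell by 0.75, by 0.34 and by 0.49. Pik3r2, another regulatory subunit, changed by 0.12 in MelanA, -0.79 in B16F0 and 0.01 in B16F10 (adjusted p = 0.872).

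Of the 18 mTOR effectors tested, 7 rose and 4 fell in all 3 lines. The 2 with the largest shared changes were translation repressors of the same family that moved in opposite directions. Eif4ebp1 rose from 89.3 to 180.0 CPM in MelanA, from 154.8 to 272.5 CPM in B16F0 and from 109.3 to 255.8 CPM in B16F10, with log2 fold changes of 1.01 (SE 0.030), 0.81 (SE 0.030) and 1.23 (SE 0.031). Eif4ebp2 fell from 107.4 to 64.9 CPM, from 283.6 to 147.5 CPM and from 283.5 to 119.8 CPM, with log2 fold changes of -0.73 (SE 0.033), -0.94 (SE 0.031) and -1.24 (SE 0.032). Grb10, an adaptor that mTORC1 phosphorylates, had 6039 and 6372 counts in untreated MelanA and 1 and 0 counts in each untreated B16 line, at least 1655-fold higher in MelanA than in B16F0 with the floor of 3 counts per library. It had 8 and 4 counts in B16F0 with SX-682 and 0 in both B16F10 libraries.

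Of the 10 regulators that are known to induce sestrins or Ddit4, 8 rose in all 3 lines (Atf4, Ddit3, Cebpb, Foxo1, Foxo3, Hif1a, Nfe2l2 and Nr3c1) and 1 fell (Foxo4), against 11.3% and 11.7% of all tested genes. This list was chosen with earlier results of these data known, so the count is a description. Trp53, which encodes p53, had log2 fold changes of -0.12 in MelanA, -0.06 in B16F0 (adjusted p = 0.0900) and -0.18 in B16F10. The median of the list was 0.46 in MelanA, 0.33 in B16F0 and 0.43 in B16F10. Atf4, the main transcription factor of the integrated stress response, rose from 379.2 to 630.4 CPM in MelanA (log2 fold change 0.73, SE 0.024), from 226.8 to 460.1 CPM in B16F0 (1.02, SE 0.024) and from 224.6 to 612.9 CPM in B16F10 (1.45, SE 0.025). Ddit3, which encodes CHOP, rose from 48.4 to 213.7 CPM, from 72.5 to 301.5 CPM and from 31.5 to 357.3 CPM in the same order, and its change had the widest range of the list.

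Of the 7 other stress genes that act on mTOR or AKT, a list chosen with the same knowledge, 4 rose in all 3 lines (Trib3, Gadd45a, Ppp1r15a and Atf3) and 0 fell. Trib3, a pseudokinase that binds AKT, rose from 109.9 to 323.9 CPM in MelanA, from 52.2 to 320.1 CPM in B16F0 and from 10.5 to 325.4 CPM in B16F10, so that, as for Ddit4, the untreated order of the lines was not kept under SX-682. Atf3, a stress-induced transcription factor, rose by 1.72, 1.60 and 2.08 on the log2 scale. Ddit4l, the paralog of Ddit4, was at 0.836 CPM in untreated MelanA, 3.72 CPM in B16F0 and 14.5 CPM in B16F10, and its log2 fold change with SX-682 was -0.80 in MelanA (adjusted p = 0.0119), -0.34 in B16F0 (adjusted p = 0.0865) and -0.05 in B16F10 (adjusted p = 0.775).

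**Figure D5:**
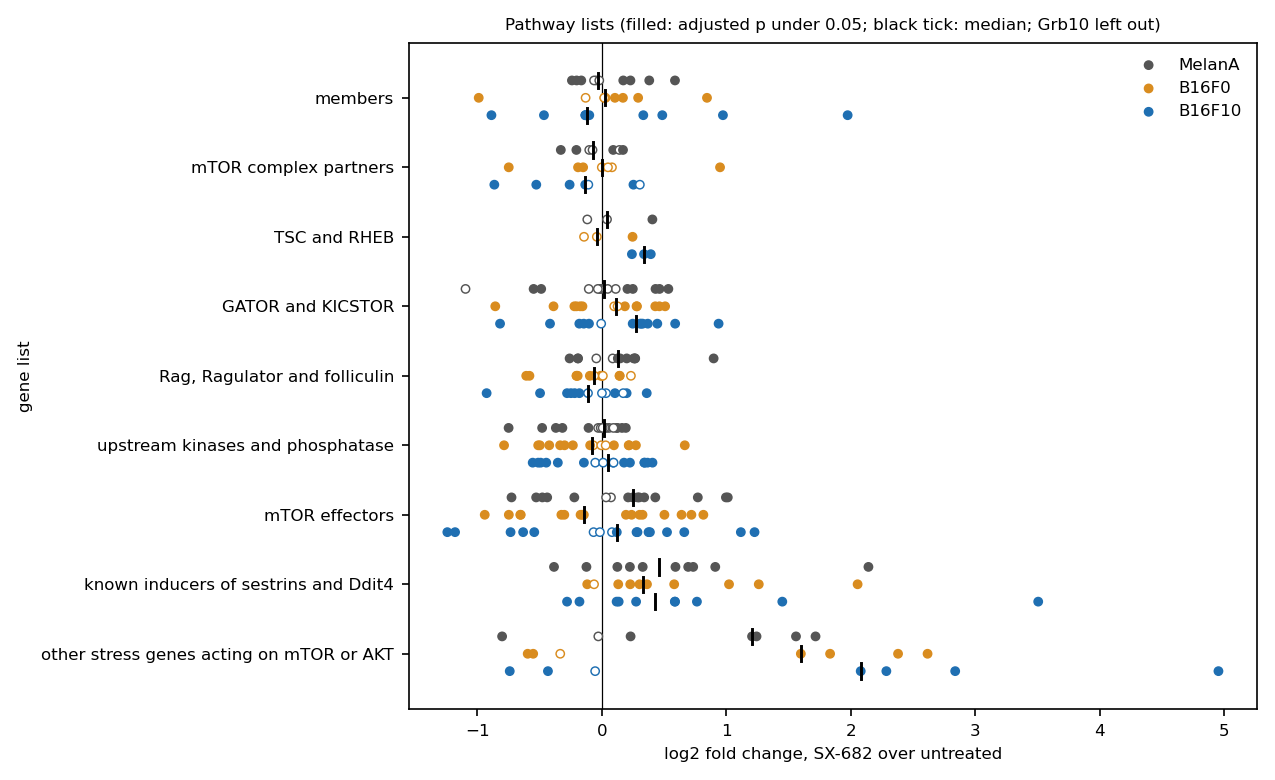
Log2 fold change with SX-682 over untreated of the 10 genes (members) and of the genes of 8 pathway lists, by line; each point is a gene, filled where the adjusted p is under 0.05, black ticks are medians, and Grb10 is left out because the B16 lines have 8 or fewer counts of it. The lists of inducers and of other stress genes reach farthest to the right, with Trib3 in B16F10 at 4.95.

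The genes whose levels followed each inhibitor most closely were ranked by Pearson's r of log2 CPM over the 12 libraries, among 9361 genes with a mean log2 CPM of at least 3. The 12 points are 6 groups of 2 libraries, so r is given as a description. Ddit4 was followed most closely by Nupr1 (r = 0.984), Chac1 (0.983) and Trib3 (0.980), and Deptor by Wdcp (0.983), Nom1 (0.978) and Rnft1 (0.976). For Sesn1 the genes were Cep78 (0.9746), Strn4 (0.951) and Rnf115 (0.943), for Sesn2 Ubxn7 (0.983), Zfp688 (0.977) and Fam104a (0.977), and for Sesn3 Ncoa2 (0.987), Supt5 (0.983) and Ncam1 (0.980). Between an inhibitor and another of the 10 genes, r went beyond 0.7 in size for Sesn1 with Rptor (-0.94), Sesn3 with Rictor (-0.93), Tsc2 (-0.80) and Tsc1 (0.79), Sesn2 with Deptor (-0.78) and Sesn3 (0.78), and Ddit4 with Deptor (-0.72). Between Ddit4 and the sestrins it was 0.61 for Sesn2, 0.21 for Sesn1 and 0.15 for Sesn3.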

How the data were processed

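RNA of 12 samples was sequenced by the authors, who deposited whole-number read counts per gene without normalization. The submitters' processing notes name cutadapt, STAR, DESeq2 and mm10. The counting program and its use of strand are not given in the sources used here. All 12 columns were matched to samples by name. Counts were analysed in R 4.3.3 with edgeR 4.0.16 (TMM scaling, filterByExpr, a prior count of 0.125, quasi-likelihood F-tests, 6 residual and 21.9 prior degrees of freedom). Standard errors were derived from F. The fit was tested on simulated data. Coordinates and exon lengths of 33821 genes equalled those of GENCODE M21. Library totals of 48876982 to 85322092 set the counting error, which floors and intervals alone cover. Alternatives were DESeq2 1.42.0, other scalings, filters and thresholds, a fit of only the groups compared, a replicate block and libraries left out.

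Members and lists were chosen with earlier results of these data known. Named genes were all members and, from each list, the 2 with the largest smallest change over the lines among those called in 1 direction (mean log2 CPM of at least 1), the 1 with the widest range, and the 3 most correlated with each inhibitor. Values of Mlst8, Trp53 and Ddit4l, and the overlap partners, were added after values were seen.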

Additional observations from a re-analysis of the deposited data

Results flagged for a closer look

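The change with SX-682 differed among the 3 lines for each of the 10 genes in edgeR's quasi-likelihood F-test of the difference, which 47.4% of all tested genes passed. The distance between the highest and the lowest of the 3 log2 fold changes was 1.59 for Ddit4, 0.787 for Deptor, 0.681 for Sesn2, 0.635 for Rptor and 0.616 for Sesn1. It was 0.363 for Rictor, 0.354 for Sesn3, 0.303 for Tsc1, 0.270 for Mtor and 0.260 for Tsc2. Adjusted p-values were between 3.15e-22 (Ddit4) and 4.46e-04 (Tsc1). The median distance over all tested genes was 0.51. Groups of 2 libraries are too small for a test of single outlying libraries.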

How the results depend on the processing

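Of 1780 values of members under alternative settings, 1725 kept their side of the threshold, and 38 lost and 15 gained a call. The remaining 2, called in the reported fit, lost the call and turned direction. Values not called in either fit could change sign and were counted as kept. The log2 difference of Rptor between untreated B16F10 and B16F0 went from -0.066 to 0.080. The SX-682 changes of Rictor, Tsc1 and Sesn3 in B16F0 also took both signs. The 2 called values that turned were the differences between untreated B16F10 and MelanA of Rictor (-0.0507) and Deptor (-0.0421) with total-count scaling, chosen after seeing the data. Shares of all tested genes are given for the reported fit only, so counts under alternative settings have no such share beside them. With a limit of 0.5 on the absolute log2 fold change, the members called with SX-682 were 1 in MelanA, 2 in B16F0 and 3 in B16F10. The untreated comparisons then gave 5 (B16F0 with MelanA), 1 (B16F10 with MelanA) and 2 (B16F10 with B16F0), the differences in change 4 (B16F10 with B16F0) and 2 (B16 with MelanA), and the other pathway genes 8 raised and 2 lowered in all 3 lines; this limit removes the small changes by construction. With each library left out in turn, members called with SX-682 numbered 7 in MelanA, 4 to 6 in B16F0 and 8 to 10 in B16F10, and pathway genes 23 to 26 raised and 12 to 13 lowered. Same-numbered treated and untreated libraries shared only a number, with correlations of their deviations of 0.0031 in MelanA, -0.0091 for B16F0 libraries and -0.0127 for B16F10 libraries. A replicate block in the fit lost no call among the members, and members called with SX-682 numbered 7, 5 and 10 and pathway genes 27 raised and 13 lowered. The comparison of B16 with MelanA and the test among lines already used every library, so no smaller fit was run for them. Depth did not limit the members, which had at least 1288 counts in every library.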

Other observations

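Rragb, which encodes a Rag GTPase closely related to that of Rraga, was singled out after its values were seen. It had 1411 and 1429 counts in untreated MelanA, 961 and 999 counts in MelanA with SX-682, 144 and 109 counts in untreated B16F0, 136 and 102 counts in B16F0 with SX-682, and 0 counts in all 4 B16F10 libraries. With the floor of 3 counts per library, untreated MelanA was at least 332-fold higher than untreated B16F10, and untreated B16F0 at least 36.7-fold higher. Castor1 showed another order of the lines, with means of 0.193 CPM in untreated MelanA, 21.8 CPM in B16F0 and 2.76 CPM in B16F10. Prr5, an mTORC2 subunit, had means of 118.2 CPM in untreated MelanA, 1.56 CPM in B16F0 and 15.8 CPM in B16F10.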
